A study of Mus musculus with 6 samples.

Results

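The interferon response and antigen presentation genes were the rows of the deposited fetal against adult Leydig cell table whose symbols begin with, or equal, the names of this system, such as B2m, Tap1, Psmb8, Ifnar1, Stat2, Irf1, Ifit1, Oasl1, Isg15, Gbp2 and Irgm1. The pattern found 78 of the 10580 listed genes, and in the GENCODE annotation of the same build it fits 137 protein-coding or long non-coding symbols. The libraries came from Leydig cells of the mouse testis, sorted as the strongly fluorescent cells of males that carried the Nr5a1-GFP transgene, in which regulatory sequence of the steroidogenic factor gene Nr5a1 drives green fluorescent protein. Fetal Leydig cells (FLCs) were taken at E18.5 from embryos of CD-1 females mated with heterozygous Tg(Nr5a1-GFP) males, and adult Leydig cells (ALCs) were taken from heterozygous Tg(Nr5a1-GFP) males at P100, with 3 libraries for each stage. All 6 libraries therefore shared the transgene and the male sex, the labels name no treatment at either stage, and sorted fetal cells of several purifications were pooled to reach the RNA needed. Sertoli cells also carry the transgene at a lower level, so the gate on strong fluorescence set what the samples could hold.

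The values described here are the authors' mean normalised counts, 1 per gene over all 6 libraries, obtained after each library's read count had been divided by a size factor. No value per library was used, so no spread between libraries, no depth per library and no difference between FLCs and ALCs is given. A mean over both stages does not say in which stage a gene was on, and in bulk RNA fewer cells of a type and less RNA per cell cannot be told apart. All 10580 listed rows had an adjusted p-value below 0.05 in the authors' own comparison of the stages, so the list is itself a selection. Orders of genes are given as mean counts unless per kb is named. Mean counts grow with transcript length, so such an order can change per kb. Ratios between genes were taken only after division by gene length. They are normalised counts per kb of annotated exon unless the longest transcript is named.

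Interferons are secreted proteins that warn cells of infection. Type I interferons act through the receptor chains Ifnar1 and Ifnar2, and interferon gamma acts through Ifngr1 and Ifngr2. Janus kinases on the receptors then phosphorylate STAT proteins, which enter the nucleus alone or together with Irf9 and switch on genes that block virus growth or display peptides on MHC class I molecules. The testis is known as a site where immune responses are held low, and Leydig cells lie next to macrophages in the interstitium between the tubules.

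The members covered a wide range of levels, and most lay above the median of the listed rows. Their mean counts ran from 8.61 to 52567 with a median of 1371, against a median of 678.5 over all listed rows, and 54 of the 78 members lay above that listed median. A total of 69 of the 78 members had a mean of at least 100, against 8148 of the 10580 listed rows. A mean below 10 was found for 2 members and for 488 listed rows. Per kb of exon the median level was 407.6 for the members and 147.2 for the listed rows, and 58 members lay above the listed median. The level of 1048 per kb, which 10% of listed rows exceeded, was exceeded by 15 members. Together the members held 0.963% of the summed mean counts of all listed rows, and 0.726% without B2m. These counts describe a list chosen by name and carry no test.

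**Figure D1:**
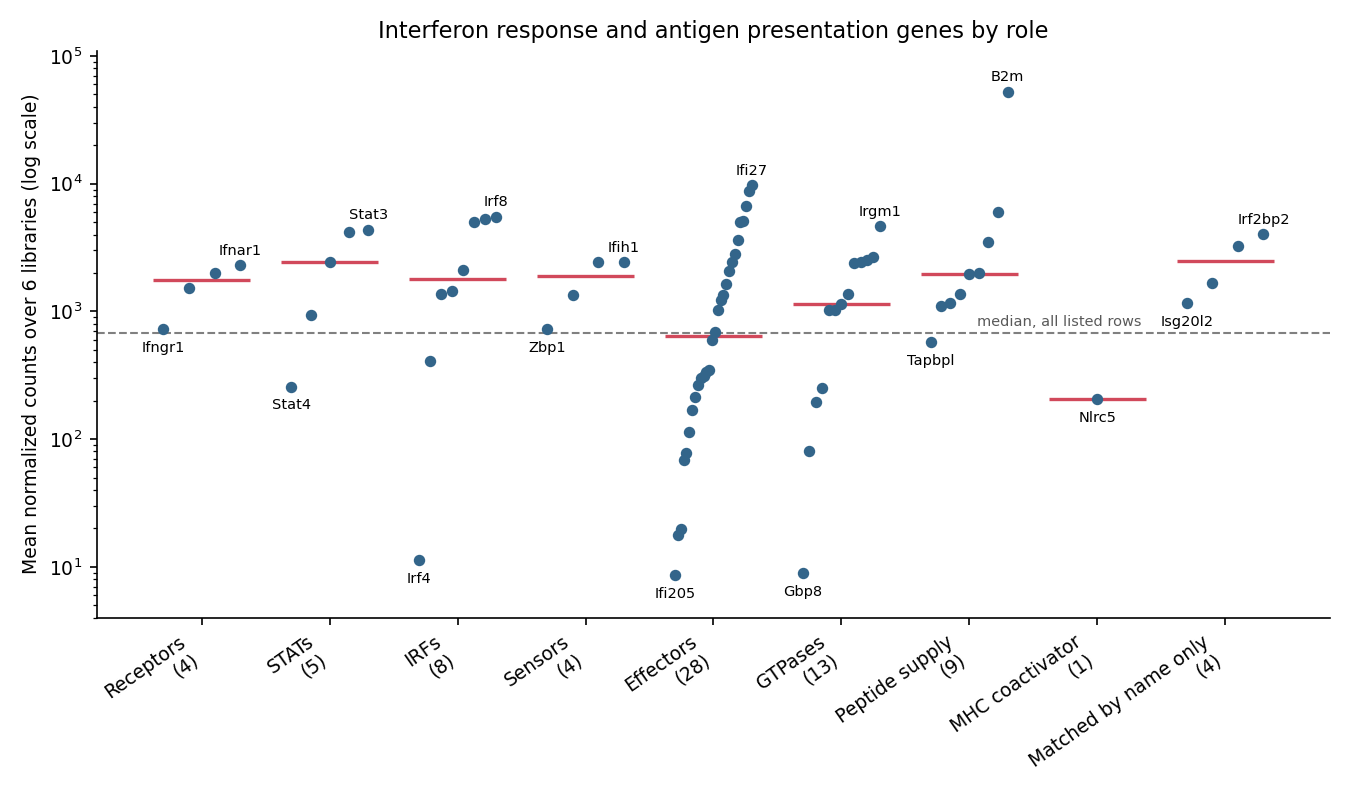
Each point is the authors' mean normalised count of 1 member gene over the 6 libraries, on a log axis, sorted within its role; the number of genes in each role is in brackets, red lines are the medians of the genes drawn and the dashed line is the median of all listed rows at 678.5. Of the 78 members 76 are drawn; B2m at 52567 and Ifi27 at 9728 stand highest, and Ifi205 at 8.61 and Gbp8 at 8.95 at the bottom; no error bars are given because 1 mean per gene was used.

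**Figure D2:**
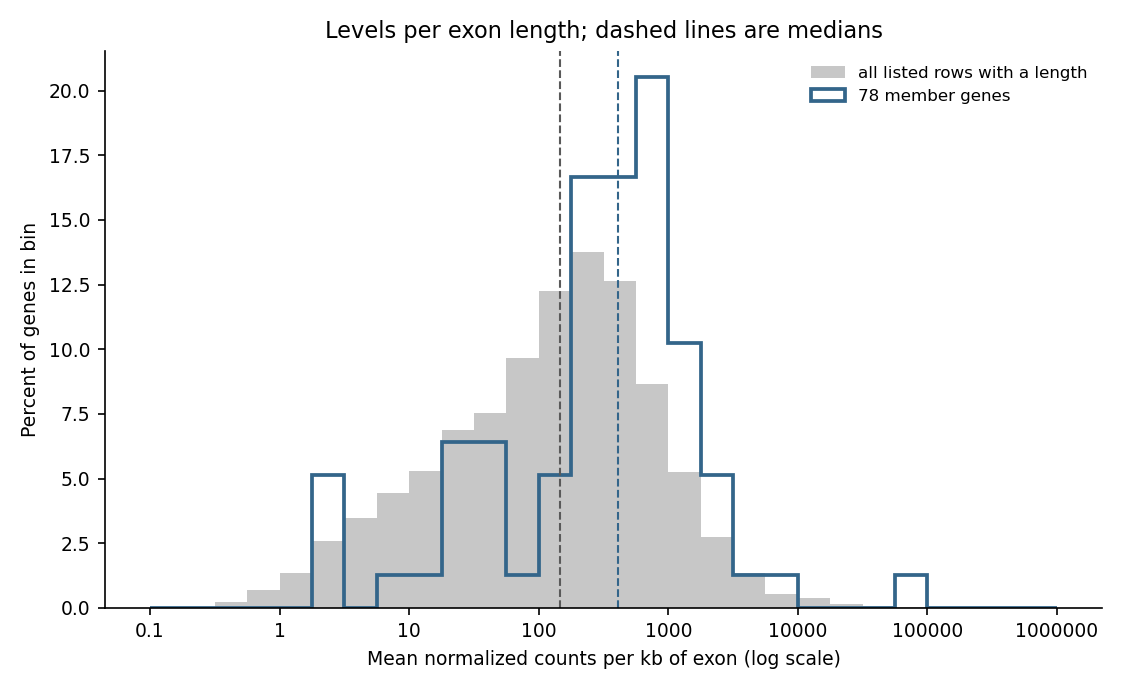
The distribution of mean normalised counts per kb of exon, on a log axis, is drawn as the percent of genes in each bin for the 78 members (blue outline) and for all listed rows with an exon length (grey). The dashed lines mark the medians of 407.6 for the members and 147.2 for the listed rows, and the isolated blue bin at the right is B2m.

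Cell type markers were read before the members were described. The list holds only genes called different between the stages. A marker without a row is therefore not shown to be absent, and cells present alike in both stages could be missed. Of 8 Leydig markers, 7 had a row, and their mean counts ran from 27742 for Fabp3 to 283675 for Cyp17a1, the enzyme that makes androgens from progestins. The macrophage list held 10 symbols, of which 2 are an older and a current name of the same gene. A row was found for 9 symbols, so every gene of this list had a row. They ran from 45.8 for Cd163 to 1059 for Lyz2, the lysozyme of myeloid cells, with a summed mean of 3616. All 6 markers shared by leukocytes had a row, from 88.8 for Cd52 to 370.2 for Laptm5, and Ptprc, the CD45 antigen, had a mean of 138.6. All 6 markers of T and NK cells had a row as well, from 2.94 for Klrd1 to 105.1 for Cd4. Endothelial cells were represented by 2 of 6 markers, Cdh5 at 1326 and Esam at 102.3. Sertoli cells were represented by 2 of 3 markers, Amh at 137.3 and Dhh at 89.0, and germ cells by 1 of 3, Ddx4 at 184.2. Interstitial progenitors were represented by 2 of 3 markers, of which Tcf21, at 216.1, was the lower. The remaining markers, including the peritubular myoid and erythroid ones, are not analysed here. The Leydig label thus stood on markers whose levels per kb had a median of 48124, against 61.1 for the macrophage list, 86.3 for the leukocyte list and 4.95 for the T and NK cell list. The median was 175.6 for the endothelial list, and the dendritic and B cell list was represented by Cd74 alone, at 546.7. Apart from the Leydig list and Cd74, these medians lay below the 407.6 of the members, and the part of other cell types in any member's value was not tested.

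**Figure D3:**
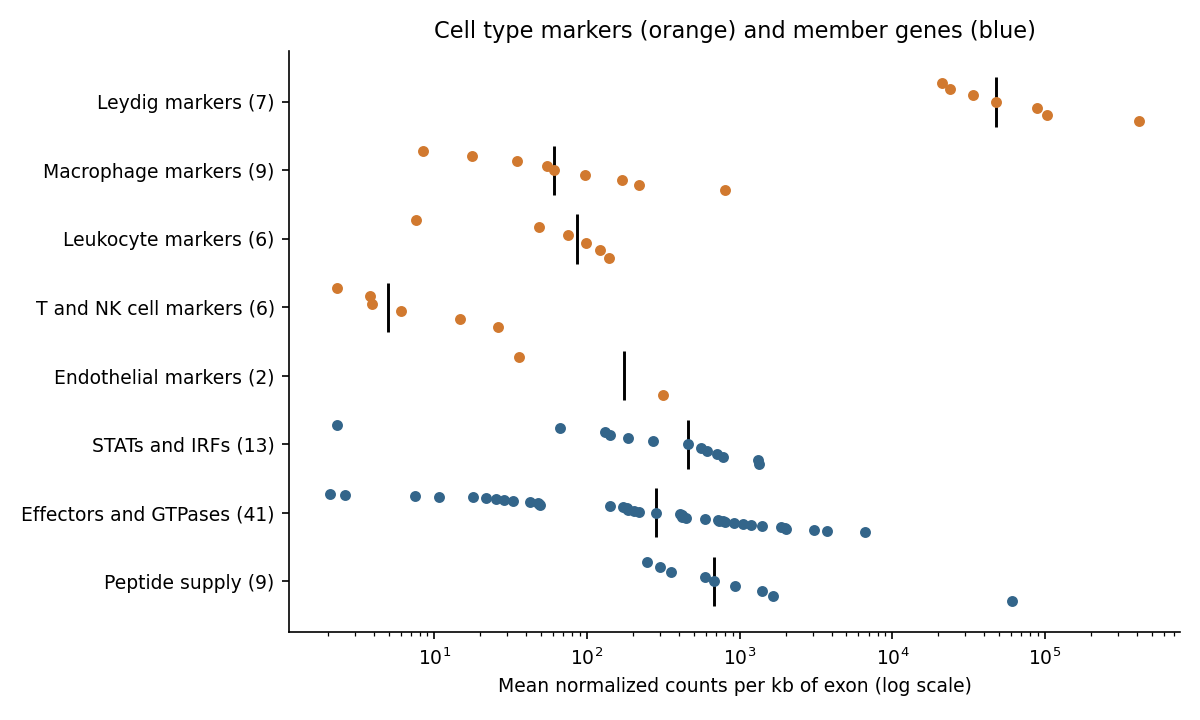
Mean normalised counts per kb of exon, on a log axis, are drawn for cell type markers (orange) and for groups of member genes (blue); each point is 1 gene, black bars are medians and the number of genes is in brackets. The 7 Leydig markers lie to the right of all other genes drawn except B2m, which reaches 61124 among the peptide supply genes; the macrophage marker with the highest level, Lyz2, lies at 804.9.

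All 4 interferon receptor chains had a row. Ifnar1 and Ifnar2, which together bind all type I interferons, had mean counts of 2306 and 1988, or 388.3 and 597.2 per kb. Which of these chains stood higher therefore depended on the length correction. The interferon gamma chains Ifngr2 and Ifngr1 had mean counts of 1535 and 732, or 407.4 and 257.0 per kb. Ifnar1, Ifnar2 and Ifngr2 are neighbours within 192.8 kb of chromosome 16, and their levels per kb differed by a factor of 1.54. The 4 receptor genes all lay above the median of listed rows, both as mean counts and per kb.

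Among the genes for the ligands, all members of a pathway list but not of the pattern, 4 of 9 had a row, and all were low. Ifnl3 and Ifnl2, which encode interferon lambda, had mean counts of 44.8 and 11.97. Ifnb1, the interferon beta gene, had a mean of 6.93 and Ifng, the interferon gamma gene of T and NK cells, a mean of 3.01. The Janus kinases were at 7425 for Jak1 and 2096 for Jak2. Of 8 feedback inhibitors of the pathway 6 had a row, led by Socs3 at 8382, Pias2 at 1832 and Pias3 at 1191.

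The STAT genes encode the factors that carry receptor signals to the nucleus, and their median mean count was 3309. Stat3, which carries signals of the interleukin 6 family, had a mean of 4362, Stat2, a part of the type I complex, a mean of 4182, and Stat6, the interleukin 4 factor, a mean of 2437. Stat5a, used by prolactin and growth hormone receptors, had a mean of 940.1. Stat4, the interleukin 12 factor of lymphocytes, was the lowest of the 6 STAT genes at 258.0, with a level per kb of 66.6. In GENCODE vM21 it shares 1033 exon bases on the same strand with the annotated gene Gm28177. If the authors' annotation held that gene too, their counting could have left reads out there or split them.

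The 9 interferon regulatory factors (IRFs) ran from 11.3 to 5517 in mean count. Irf8, known for macrophage and dendritic cell development, had a mean of 5517, Irf1, an early target of interferon gamma, had 5264, and Irf7, the amplifier of type I interferon production, had 5040. Per kb of exon they stood at 1335 for Irf7, 1324 for Irf1 and 782.0 for Irf8, and per kb of the longest transcript at 1555, 2463 and 1590, so their order depends on the length used. Irf3, which is activated after virus sensing, had a mean of 2100. Irf9 and Irf2, a repressor at the same DNA element, had means of 1457 and 1374. Irf5, a factor of myeloid cells, had a mean of 410.1. At the bottom stood Irf4, a factor of lymphocytes and plasma cells, at 11.3. The level of Irf8 per kb was 338.2 times that of Irf4, or 668.4 times with the longest transcript, over the low mean of Irf4. Beside the level of Irf8 stand those of the 9 macrophage markers with a row, which had a median of 61.1 per kb. They ran from 8.39 for Cd163 to 804.9 for Lyz2, with Csf1r at 170.0. The part of macrophages in the value of Irf8 was not tested.

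The 4 sensors of foreign nucleic acid all lay above the listed median. Ifih1 (MDA5), which recognises long double-stranded RNA, had a mean of 2441 and Ddx58 (RIG-I), which recognises short RNA with a triphosphate end, had 2433. Dhx58 (LGP2), their regulator, had a mean of 1353, and Zbp1, which senses Z-form nucleic acid, had 730. Per kb they ran from 206.9 for Zbp1 to 413.4 for Dhx58, and with the longest transcript Ddx58 was highest at 628.0. From the pathway list 13 of 14 other sensing genes had a row. Mavs, the mitochondrial adaptor of RIG-I and MDA5, was highest at 3427, followed by Unc93b1, which carries Toll-like receptors to endosomes, at 1703 and the adaptor Myd88 at 1658. The Toll-like receptors Tlr4, Tlr7 and Tlr9 were low, between 31.8 and 49.5, and Tlr3 was at 1015.

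The 28 effector genes, which encode the proteins that act against viruses or limit the response, ran from 8.61 to 9728 with a median mean count of 644.2. That median lay below the 678.5 of all listed rows, and 14 of the 28 lay above the listed median. Per kb their median of 209.8 lay above the listed 147.2, with 18 of the 28 above it. The highest mean was that of Ifi27, which encodes a small interferon-induced membrane protein, at 9728 and 6631 per kb. Next came Rsad2 (viperin), which makes a chain terminator of viral RNA synthesis, at 8703, and the 2'-5' oligoadenylate synthetase-like genes Oasl2 and Oasl1 at 6705 and 5131. The Ifit genes, whose products bind foreign RNA ends, were at 4977 for Ifit1, 3623 for Ifit2 and 2445 for Ifit3. Per kb, Isg15, a ubiquitin-like modifier, stood at 3736 and Ifitm3, which hinders virus entry through membranes, at 3051, both above Rsad2 at 2008. Usp18, which removes Isg15 from proteins and quiets the type I receptor, had a mean of 1654.

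The middle of the effectors was formed by Ifi35 at 1343, Ifi44 at 1235, Xaf1, an apoptosis factor, at 1023, Mx1, a GTPase against influenza-like viruses, at 687, and Rtp4 at 601. The Oas genes of the 2'-5' oligoadenylate synthetase family had lower means than Oasl1 and Oasl2. Oas1a was at 346.3, Oas3 at 299.1, Oas2 at 212.7, Oas1g at 113.8 and Oas1c at 68.4, and the level of Oasl2 per kb was 21.6 times that of Oas1g, or 37.3 times with the longest transcript. Isg20, an RNA exonuclease, was at 264.2 and Ifi27l2a at 337.0. Per kb, however, Ifi27l2a at 727.8 stood above Ifi44 at 201.5, Xaf1 at 218.2, Mx1 at 181.5 and Rtp4 at 282.2. It stood below Ifi35 at 777.8 per kb. The Ifi20x genes of chromosome 1, relatives of cytosolic DNA sensors, were at 313.5 for Ifi202b, 170.1 for Ifi203, 77.8 for Ifi204 and 8.61 for Ifi205. Ifitm1 and Ifitm7 had means of 19.6 and 17.7. These families hold close copies, and a read that fits several of them could have been lost or split, so the order within a family is uncertain.

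The 13 interferon-induced GTPases, which attack the vacuoles of intracellular microbes, had a median mean count of 1143. Irgm1, a regulator of the immunity-related GTPases, was highest at 4651, followed by Irgm2 at 2656, Gbp7 at 2516, Iigp1 at 2449 and Igtp at 2383. Gbp3 at 1369, Gbp5 at 1143, Ifi47 at 1032 and Gbp2 at 1026 formed a middle group. Gbp9 at 253.3, Gbp6 at 196.1, Gbp4 at 80.1 and Gbp8 at 8.95 were low. Igtp had the highest level of this class per kb of exon, 1179, while per kb of the longest transcript Irgm1 stood at 1214 and Igtp at 1179. Irgm2 and Igtp share 162 exon bases on the same strand, and Gbp6 shares 1726 with Gm43302.

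The 8 guanylate-binding protein genes with a row split by chromosome. The 4 genes on chromosome 3, Gbp2, Gbp3, Gbp5 and Gbp7, lie within 144.0 kb and had mean counts of 1026 to 2516, or 172.2 to 448.1 per kb. The 4 genes on chromosome 5, Gbp4, Gbp6, Gbp8 and Gbp9, lie within 279.5 kb and had mean counts of 8.95 to 253.3, or 2.60 to 49.0 per kb. The ranges of both groups did not overlap on either scale. On the same strand Gbp4, Gbp8 and Gbp9 share up to 61 exon bases, Gbp6 shares 1726 with Gm43302 and Gbp7 shares 637 with Gm43802. Reads lost or split between overlapping genes or close copies could have changed these values, which was not tested. The split was seen in the values and not predicted from them, and without values per library it has no test.

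In all, 47 members lay in 15 clusters of neighbours no more than 1 Mb apart. Some clusters held genes of similar level. The 3 Ifit genes on chromosome 19 differed by a factor of 2.03 per kb, and Stat2 and Stat6 on chromosome 10 by 1.27. Other clusters held genes far apart. The factor was 170.3 on chromosome 7 between Ifitm1 and Ifitm3 and 89.7 among the Ifi20x genes. Ifi27 and Ifi27l2a, which lie within 9.47 kb of chromosome 12, differed by a factor of 9.11 per kb, or 13.7 with the longest transcript.

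**Figure D4:**
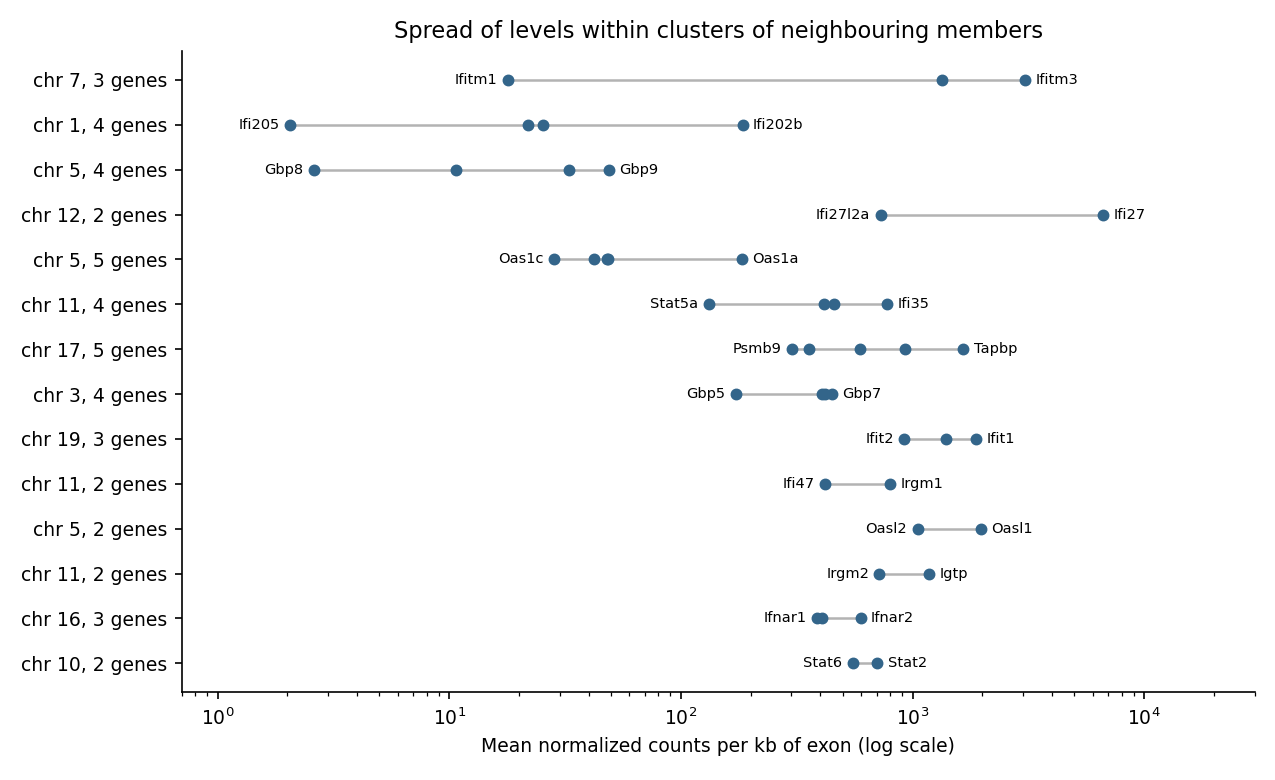
Each row is 1 cluster of neighbouring members, 14 of the 15 being drawn, ordered by the ratio of its highest to its lowest level; points are mean normalised counts per kb of exon on a log axis, and the lowest and highest gene are named. The row for chromosome 7 spans a factor of 170.3, and the row for Stat6 and Stat2 on chromosome 10 spans 1.27.

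The genes for peptide supply and class I assembly were headed by B2m, the light chain that every MHC class I molecule needs at the cell surface. B2m lies at chr2:122147686-122153083 on the plus strand. Its mean count of 52567 was above 99.7% of listed rows, and its level of 61124 per kb was 36.9 times that of Tapbp. Tapbp (tapasin), which holds class I molecules at the peptide transporter, had a mean of 6016, and its relative Tapbpl, a second peptide editor, had 577, the lowest of the 9 genes. The transporter subunits Tap2 and Tap1 had means of 3517 and 1949, and Tap2 per kb was 2.61 times Tap1. The immunoproteasome subunits were at 1998 for Psmb8, 1163 for Psmb10 and 1106 for Psmb9. Ifi30, a thiol reductase of lysosomes that prepares antigens for class II and cross-presentation, had a mean of 1373 and 1400 per kb. Tap1 and Psmb9, which lie head to head on chromosome 17, share 212 exon bases on opposite strands.

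Nlrc5, the transactivator of MHC class I genes, had a mean of 206.9 and a level of 24.4 per kb, below 69 of the other members. The MHC heavy chain genes, whose mouse symbols begin with H2, and the class II transactivator Ciita are not analysed here. Of the general chaperones and helpers of class I loading 6 of 8 had a row, with the endoplasmic reticulum proteins Hspa5 at 25216, Calr at 21840 and Pdia3 at 15213 in the lead. Per kb Calr at 7583 stood above Hspa5 at 5963 and Pdia3 at 4847. These serve protein folding at large and not class I alone. Of the class II pathway 4 of 8 genes had a row, namely the proteases Ctsl at 7021, Lgmn at 2902 and Ctss at 445.3 and the invariant chain Cd74 at 918.0.

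Of 26 further interferon-induced genes outside the pattern 25 had a row, with a median mean count of 2011. Lgals3bp, a secreted glycoprotein, had the highest mean at 20133, followed by Bst2 (tetherin), which holds budding viruses on the cell, at 10749 and Trim25, the ubiquitin ligase that activates RIG-I, at 9681. Per kb the order changed, with Bst2 at 11904 above Lgals3bp at 7072. Cxcl10, a chemokine for T cells, had a mean of 4321, while its relative Cxcl9, an interferon gamma target, had 42.3. The pathway lists held 76 genes in all, of which 60 had a row, and their median level per kb was 312.3.

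A last group of 4 members was set apart here as matching the pattern by name alone. Whether these genes bear on the interferon response was not tested. Irf2bp2 at 4036, Irf2bpl at 3268 and Irf2bp1 at 1668 encode Irf2-binding corepressors and their relative, and Isg20l2 at 1156 encodes a nuclease of ribosome maturation. Without them 65 of the remaining members had a mean of at least 100.

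Promoter sequence was read for the members as a source that neither the rule nor the counts had used. It is not independent of the rule, which picks genes by names of the interferon response. A higher motif share than in other promoters is therefore no separate support for the choice of members. RefSeq windows of GRCm38.p6, from 250 bases before to 50 bases after an annotated start, were held for 59 of the 78 members in 69 windows. The interferon-stimulated response element (ISRE), the DNA site of the type I complex of STATs with Irf9 and of IRFs, was searched as the core GAAANNGAA. The gamma-activated site (GAS), bound by STAT dimers, was searched as TTCNNNGAA, which is its own reverse complement. Both strands were read. Neighbouring ISRE cores can overlap each other, and an ISRE core and a GAS element overlapped in 1 member window. A match is a run of letters and not a shown binding site.

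The following stretches are shown for the member with the highest level per kb of exon, among those with a window, of the effectors, the peptide supply genes and the GTPases. Each runs 5′ to 3′ on the strand of the gene, over the 250 bases before the start, with motif matches in capitals. For Isg15 they cover chr4:156200819-156201068 on the minus strand, for B2m chr2:122147437-122147686 on the plus strand, and for Igtp chr11:58199306-58199555 on the plus strand.
Isg15: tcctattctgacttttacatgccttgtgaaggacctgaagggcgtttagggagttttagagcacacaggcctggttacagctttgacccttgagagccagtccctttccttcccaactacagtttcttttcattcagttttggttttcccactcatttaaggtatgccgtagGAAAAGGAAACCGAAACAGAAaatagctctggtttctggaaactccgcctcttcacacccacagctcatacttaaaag
B2m: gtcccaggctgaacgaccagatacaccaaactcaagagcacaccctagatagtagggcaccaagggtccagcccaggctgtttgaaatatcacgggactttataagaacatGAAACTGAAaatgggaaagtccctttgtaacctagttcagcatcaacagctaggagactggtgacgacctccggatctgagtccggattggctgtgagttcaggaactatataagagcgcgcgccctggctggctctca
Igtp: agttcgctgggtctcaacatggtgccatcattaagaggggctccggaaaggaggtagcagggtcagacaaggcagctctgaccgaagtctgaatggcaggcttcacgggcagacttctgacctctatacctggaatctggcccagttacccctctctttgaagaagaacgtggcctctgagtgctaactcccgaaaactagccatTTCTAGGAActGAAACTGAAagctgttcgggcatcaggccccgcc

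In Isg15 the capitals hold 3 ISRE cores that overlap in 1 run, the nearest of which begins 66 bases before the start. In B2m there is 1 ISRE core, 139 bases before the start. In Igtp a GAS element and an ISRE core stand side by side, the latter 34 bases before the start. The transcription factor Stat2 and the receptor Ifnar2 are shown as shorter stretches around 1 match, an ISRE core read on the other strand for Stat2 and a GAS element for Ifnar2, because they had the highest level per kb among the STATs and the receptors with a window. They cover chr10:128270261-128270301 and chr16:91372553-91372593, both on the plus strand.
Stat2: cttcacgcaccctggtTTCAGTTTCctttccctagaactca
Ifnar2: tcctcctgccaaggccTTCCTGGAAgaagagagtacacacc

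The ISRE core was present in 26 of the 69 member windows, or 37.7%, against 8.55% of all 32817 promoter windows of the same length. Among windows of listed genes that are no member the share was 7.04%. The GAS element was present in 17 member windows, or 24.6%, against 8.29% of all windows and 6.99% of those of listed genes that are no member. By gene, 26 of the 59 members with a window held an ISRE core, 17 a GAS element, 7 both and 23 neither. Windows of gene families share ancestry, so they are not independent and the shares carry no test.

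The roles differed in these letters. An ISRE core was found in 7 of 8 GTPases, in 12 of 21 effectors, in both sensors that had a window, Ifih1 and Ddx58, and in 2 of 5 STATs, Stat2 and Stat4. It was found in 1 of 8 IRFs, Irf2, in 1 of 7 peptide supply genes, B2m, in 1 of the 4 genes matched by name alone, Irf2bp2, and in none of the 4 receptors. A GAS element was found in 2 receptors, Ifnar1 and Ifnar2, in 3 IRFs, Irf1, Irf2 and Irf8, in 4 GTPases, Gbp5, Gbp7, Igtp and Irgm2, in 6 effectors, in the immunoproteasome gene Psmb8 and in Irf2bp1. All 4 GTPases with a GAS element also held an ISRE core. Irf7, the IRF with the highest level per kb of exon though not per kb of the longest transcript, held neither in its window.

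The 41 ISRE matches of members lay near the start. Their median position was 69 bases before it, and 32 of them began within the 150 bases before it, against a median of 113 bases and a share of 47.6% for the 3029 matches in all promoters. Overlapping cores of a run, as in Isg15, were counted as separate matches in both sets. The matches are thus not independent, and the difference carries no test. For the 20 GAS matches the median was 93.5 bases and 12 of them began within the same 150 bases, out of 300 bases in a window. Positions of GAS matches in all promoters were not computed. These values therefore do not show whether GAS matches of members lay nearer the start than others. The median level per kb was 413.5 for the 26 members with a core and 457.9 for those without, and members with a core ran from 2.06 per kb for Ifi205 to 61124 for B2m.

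**Figure D5:**
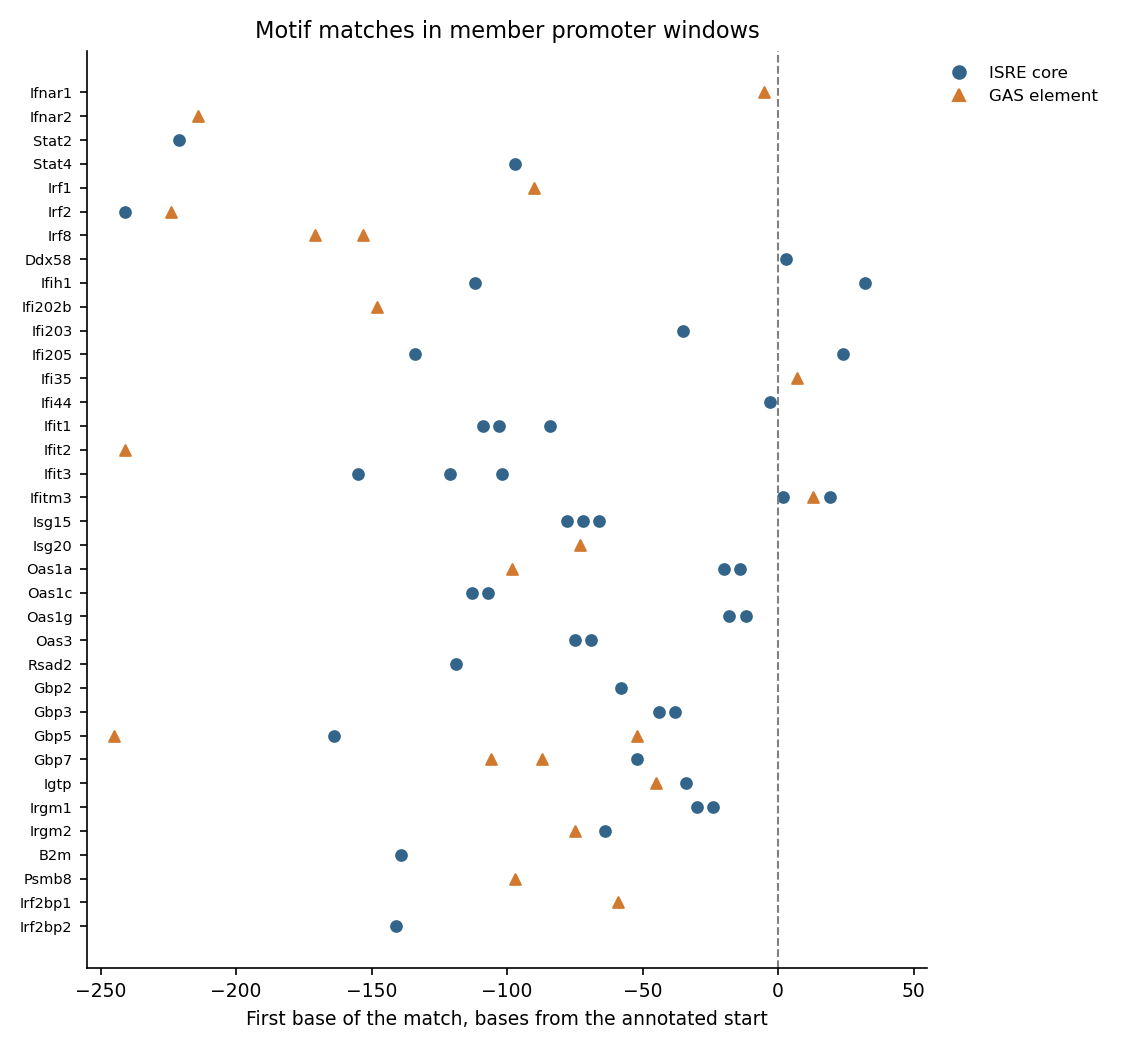
Each row is 1 member with at least 1 match in its RefSeq promoter window, grouped by role; circles mark ISRE cores and triangles GAS elements, and the horizontal axis gives the first base of the match in bases from the annotated start, which is the dashed line. Of the 41 ISRE matches 32 lie in the 150 bases before the start, and the runs of 3 in Isg15, Ifit1 and Ifit3 show as neighbouring circles.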

How the data were processed

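RNA was measured by paired-end RNA sequencing in 3 FLC and 3 ALC libraries of sorted Nr5a1-GFP+ cells. Per the study's methods, the libraries were made with a stranded total RNA kit with ribosomal RNA removal, while its results speak of poly(A)+ RNA. Per the labels and methods, the authors demultiplexed reads with CASAVA (version 1.8.2), mapped them to GRCm38 with GemTools and counted them on a Gencode annotation. The study's methods name another release than GENCODE vM21, from which exon lengths and overlaps were taken here. Lengths and overlaps given here may therefore differ from those behind the counts. Whether counting used strand and how reads with several matches were treated is not given in the sources used here. The deposited table holds, for each gene, 1 signal value used here, an average that spans all 6 libraries after each count was scaled by its library's size factor. Its other deposited columns hold the authors' own comparison of the stages (fold change, its standard error, statistic, p-value and adjusted p-value). These were not used, except that the adjusted p-values were checked against a limit of 0.05, which 0 rows reached or exceeded. Each gene therefore has 1 value with no error, the depth per library is unknown, and no test between stages was made.

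Members were the rows that fit the name pattern. All 78 were matched by symbol to GENCODE vM21 (GRCm38) for position and merged exon length, and of the 10580 listed rows 10223 matched by symbol, 299 by an older symbol and 58 not at all. Promoter windows came from RefSeq, and 19 members had none. Their orientation was checked against transcripts. The last 25 bases were found in the gene's own transcripts in 42 of 46 windows on the plus strand and 20 of 23 on the minus strand, and in 0 as the reverse complement. Scripts were tested on simulated data and ran in Python 3.11.15 with pandas 2.3.3. Members were named with the highest and lowest mean of each role, except where that gene is among those not reported here. Of the other pathway lists the 3 highest of each class were named, others being chosen after their values were seen. The members, roles and lists were chosen with earlier results of these data known. A few genes that fit the pattern or the marker lists enter the counts and medians but are not reported here by name or drawn as points.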

Additional observations from a re-analysis of the deposited data

How the results depend on the processing

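No paired analysis was possible because the values used hold 1 mean per gene and none per library, and for the same reason no library could be left out. There were 11 alternatives. The median mean count of the members, 1371, became 1361 without the 4 genes matched by name alone and 1373 without genes whose mean was below 10. The median level per kb, 407.6, became 504.3 with the length of the longest transcript, where the listed median was 204.1 and 57 members lay above it, and 410.6 without genes whose mean was below 10. The share of the summed mean, 0.963%, became 1.13% when the 20 rows of highest mean, none of which is a member, were left out of the sum. The number of members over the minimum mean was 72 at a minimum of 50 and 66 at 200. The listed rows were not counted at these other minimums. The share of member windows with an ISRE core was 49.3% with the looser core GAAANNGA and 33.3% in the 200 bases nearest the start, against 20.9% and 5.42% of all windows, and that with a GAS element was 18.8% against 5.42%. Orders and ratios between single genes per kb depend on the length used, as given beside Irf8, Oasl2, Igtp and Ifi27. Leaving out the H2 genes was not run, as no member begins with those letters. Low means rest on few reads, and their counting error cannot be given without the depth.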

Other observations

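The immunoproteasome subunits can be set beside the standard catalytic subunits that they replace, a comparison chosen after the values were seen. Psmb8 stood at 591.0 normalised counts per kb of exon and its counterpart Psmb5 at 1278, a ratio of 0.462. Psmb9 stood at 302.2 and Psmb6 at 2198, a ratio of 0.137, and Psmb10 stood at 682.3 and Psmb7 at 1256, a ratio of 0.543. With the length of the longest transcript the ratios were 0.820, 0.0900 and 0.589, so the standard subunit was higher in all 3 pairs under both lengths. As mean counts, however, Psmb8 at 1998 stood above Psmb5 at 1149, so the direction in that pair depended on the length correction. Psmb6 at 4114 and Psmb7 at 4295 stood above Psmb9 and Psmb10 as mean counts too. The values are means over both stages and have no error, and Psmb9 shares exon bases with Tap1 on the other strand.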
